A study of Rattus norvegicus with 12 samples.

Results

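The AKT, SGK, S6K and PKC kinases and the kinase that switches them on were followed at the mRNA level in a pair of rat liver epithelial cell lines exposed to rapamycin. The genes were listed by name, without a filter on their measured levels: Akt1, Akt2, Sgk1, Rps6kb1, Rps6kb2, Rps6ka1, Pdpk1, Prkca and Prkcd. Earlier results of these data were known when they were chosen. Every probe set that the array annotation gives to these symbols was taken, which made 14 probe sets of 7 of the 9 genes, among 31042 probe sets other than controls and 14217 genes with a probe set of their own. Akt2 had 4 probe sets, Akt1 had 3, Pdpk1 and Rps6kb1 had 2 each, and Sgk1, Prkca and Prkcd had 1 each. No probe set carried the symbol Rps6kb2 or Rps6ka1, and both were not analysed here. Of the 14 probe sets, 12 averaged at least 100 intensity units in some group and were tested. A probe set of Akt1 (1375178_at, 36.0 to 49.6 over all plates) and a probe set of Akt2 (1378425_at, 60.2 to 84.3) averaged below 100 in every group and were not.

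WB311 cells with 50 nM rapamycin, WB311 cells with DMSO vehicle, WB-F344 cells with 50 nM rapamycin and WB-F344 cells with DMSO vehicle were measured after 24 hr, on 3 plates each and 1 Affymetrix Rat Genome 230 2.0 array per plate. WB-F344 is a diploid epithelial line from the liver of an adult male Fischer rat, and the labels call it sensitive to rapamycin and not tumorigenic, with a doubling time of 42.0 h. WB311 arose spontaneously from WB-F344, and the labels call it resistant and tumorigenic, with a doubling time of 15.5 h. Each line is a single line and the replicates are plates, so the adjusted p values below measure the spread between plates, and a difference between the lines describes this pair of lines.

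These proteins belong to the AGC family of serine and threonine kinases. Growth factors activate phosphoinositide 3-kinase (PI3K), which makes the membrane lipid PIP3, and 3-phosphoinositide-dependent kinase 1 (PDK1, the product of Pdpk1) then phosphorylates the activation loop of AKT, of serum- and glucocorticoid-inducible kinase (SGK), of the ribosomal S6 kinases (S6K) and of protein kinase C (PKC). A second site near the tail of these kinases is phosphorylated by mTOR, in mTOR complex 1 for S6K and in mTOR complex 2 for AKT, SGK and conventional PKC. Rapamycin bound to the protein FKBP12 blocks mTOR complex 1, whose substrate S6K is the usual readout of the drug, and long exposure can also lower mTOR complex 2 in some cells. In liver, AKT carries the insulin signal to glucose and lipid metabolism, and AKT and SGK hold FoxO transcription factors out of the nucleus. The arrays read mRNA and neither protein nor phosphorylation.

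Array medians lay between 59.5 and 62.9, and arrays of one group correlated at 0.989 to 0.998 over probe sets, which are not independent of each other. The WB-F344 plates numbered 2 stood apart. Their Gapdh control probe sets read 0.17 (rapamycin) and 0.34 (vehicle) higher at the 3′ end than at the 5′ end on the log2 scale, against -0.12 to -0.043 on the other WB-F344 plates and -0.11 to -0.042 on the WB311 plates. By the beta-actin control the same difference was 0.62 (rapamycin) and 1.04 (vehicle) on the plates numbered 2. It was 0.21 to 0.25 on the other WB-F344 plates and 0.38 to 0.49 on the WB311 plates, so this control also differed between the lines. The part of this in the results below was not tested. Hepatocyte markers were near background in both lines. Over 9 such genes the summed intensity of a plate lay between 304 and 358 in all groups, with albumin at 31.9 to 33.5 in the group means. Krt7, a keratin of biliary and other simple epithelia, averaged 141 in WB311 cells with rapamycin, 76.5 in WB311 cells with vehicle, 4853 in WB-F344 cells with rapamycin and 5534 in WB-F344 cells with vehicle. Krt19, the other keratin of that 6-gene biliary and progenitor list to be tested, ran the other way between the lines, at 86.7 with rapamycin and 109.9 with vehicle in WB311 and 25.3 with rapamycin and 23.1 with vehicle in WB-F344. The list as a whole summed to 292 to 347, 263 to 308, 4758 to 5324 and 5118 to 6351 in the same order of groups. Mesenchymal markers (8 genes) summed to 2074 to 2260 in WB311 plates with rapamycin, 1877 to 1970 in WB311 plates with vehicle, 34854 to 40798 in WB-F344 plates with rapamycin and 42225 to 51192 in WB-F344 plates with vehicle. In WB-F344 these sums came mostly from Col1a1, Col1a2, Col3a1 and Tagln. The list members Thy1, Pdgfrb and Lum averaged below 100 in every group. Col1a1 (-0.50) and Col3a1 (-0.90) were called lower with rapamycin in WB-F344, and Tagln (0.41) was not called. Leukocyte markers (8 genes) summed to 1197 to 1459 in WB-F344 plates with rapamycin and 702 to 837 with vehicle, mostly from Cd14, while the defining marker Ptprc stayed near background. Endothelial markers (5 genes) summed to 1113 to 1286 in WB311 plates with rapamycin, 1029 to 1159 in WB311 plates with vehicle, 109 to 135 in WB-F344 plates with rapamycin and 112 to 133 in WB-F344 plates with vehicle, with only Tek, an angiopoietin receptor, over 100 in any group. The part of these markers in the results below was not tested. The arrays measure RNA from whole plates, so less RNA per cell and fewer cells with the RNA cannot be told apart.

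In 1 fit of both lines together, rapamycin changed 5 of the 12 tested probe sets in WB-F344 cells and none of the 12 in WB311 cells. A probe set was called changed at a Benjamini-Hochberg adjusted p under 0.05 with a fold change of at least 1.2, from 1 limma fit over the 12 arrays. In WB-F344 cells 22.6% of all 13261 probe sets tested were called (7.58% higher and 15% lower), so 2 higher and 3 lower of 12 is a somewhat larger share than over the whole array, from few probe sets. The median effect of rapamycin over the 12 probe sets was 0.00 on the log2 scale in WB-F344, against -0.053 over all probe sets tested. In WB311 cells 3.72% of 13135 probe sets were called, so a count of 0 of 12 is near that background. In WB311, 1 of the 12 passed an unadjusted p of 0.05 (18.1% of all tested), and the median effect was 0.09, against 0.01 over all probe sets tested. The 3 rapamycin plates lay wholly to one side of the 3 vehicle plates for 4 of 12 probe sets in WB-F344 (34.3% of all tested) and for 3 of 12 in WB311 (38.7% of all tested). The effect of rapamycin itself differed between the lines, by the contrast of the 2 effects in the same fit, for 3 of the 12 probe sets, 1 each of Sgk1, Pdpk1 and Akt1, against 10.7% of all 14214 probe sets tested (7.34% more positive in WB311 and 3.33% more negative). This fit gives all groups the same spread for a probe set. The median SD (log2, rapamycin and vehicle) was 0.080 and 0.091 in WB311, and 0.122 and 0.129 in WB-F344. With the 2 groups of each line fitted alone, 2 of the 12 were called in WB-F344 and 1 in WB311. Over all probe sets, 1658 were then called in WB-F344 and 1319 in WB311, against 3000 and 488 in the shared fit.

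**Figure D1:**
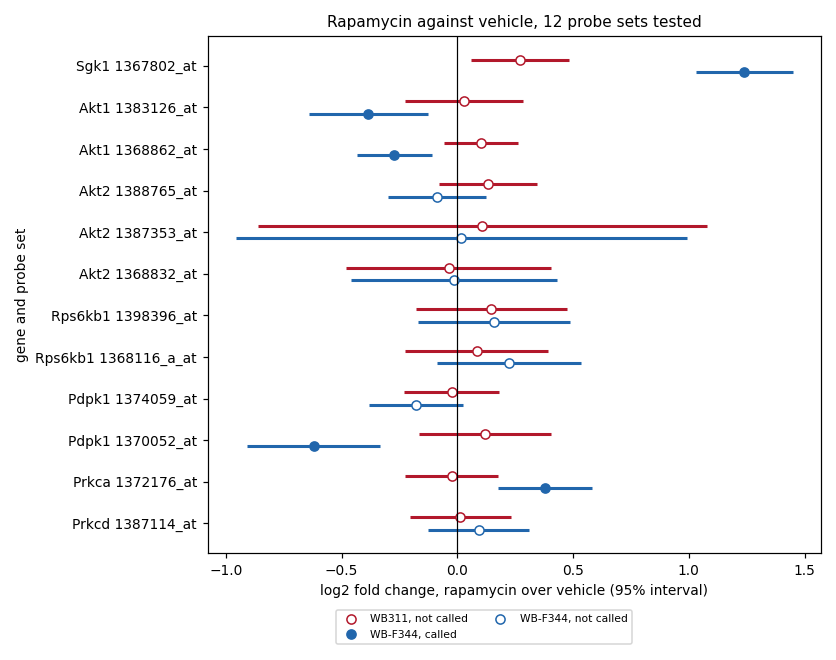
Effect of rapamycin on each tested probe set, as the log2 difference of rapamycin minus vehicle with its 95% confidence interval, in WB311 and in WB-F344 cells (3 plates per group); filled points were called. Sgk1 in WB-F344 stands at 1.24, apart from the other points, and no WB311 point is filled.

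Sgk1 encodes a kinase whose mRNA is itself induced by serum, glucocorticoids and cell stress, and which regulates ion transport and survival. It had the largest response to rapamycin among these kinases in WB-F344 cells. The RefSeq promoters used here hold 3 starts of Sgk1, which are shown because the probe set does not say which start was used. The annotated gene reaches chr1:24916886, far upstream of these windows, so the 3 may not be all of its starts. The 250 bases before each start are given 5′ to 3′ on the gene's strand, the minus strand of chromosome 1 in the GRCr8 build, at chr1:24804832-24805081, chr1:24805571-24805820 and chr1:24807232-24807481, with matches to the searched motifs in capitals.
Sgk1 start 1: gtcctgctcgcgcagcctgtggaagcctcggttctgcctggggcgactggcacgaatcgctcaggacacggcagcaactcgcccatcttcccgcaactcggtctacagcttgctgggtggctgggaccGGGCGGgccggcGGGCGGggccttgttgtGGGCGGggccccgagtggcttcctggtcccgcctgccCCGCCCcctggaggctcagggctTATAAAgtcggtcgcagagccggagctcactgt
Sgk1 start 2: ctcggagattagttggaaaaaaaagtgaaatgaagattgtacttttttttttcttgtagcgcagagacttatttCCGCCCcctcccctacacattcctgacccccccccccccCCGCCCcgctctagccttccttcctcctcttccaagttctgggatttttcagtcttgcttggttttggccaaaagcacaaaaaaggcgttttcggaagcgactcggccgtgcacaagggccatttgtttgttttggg
Sgk1 start 3: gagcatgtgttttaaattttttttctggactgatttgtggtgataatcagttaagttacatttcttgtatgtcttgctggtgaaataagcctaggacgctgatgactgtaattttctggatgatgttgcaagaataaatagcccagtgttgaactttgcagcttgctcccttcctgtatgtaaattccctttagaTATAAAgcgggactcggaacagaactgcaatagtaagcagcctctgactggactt
These motifs were searched on both strands, none of which contains another: the GC box GGGCGG (found in 30.5% of 33469 rat promoter windows of this length), the TATA box TATAAA (12.9%), the AP-1 site TGANTCA (6.34%), the E-box CACGTG (5.59%), the FoxO site GTAAACA (3.21%) and the cyclic AMP element TGACGTCA (1.59%). The window of start 1 had a GC content of 69.6% and held 4 GC boxes, 1 of them on the opposite strand, with a TATAAA beginning 33 bases before the start. Start 2 (GC content 49.6%) held 2 GC boxes on the opposite strand, and start 3 (39.2%) held a TATAAA 55 bases before the start. These matches are a description of letters and not of sites in use.

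The Sgk1 probe set (1367802_at) read 357, 409 and 357 intensity units on the WB311 plates with rapamycin, against 314, 283 and 334 with vehicle. On the WB-F344 plates it read 724, 679 and 662 with rapamycin, against 303, 317 and 257 with vehicle. All 3 rapamycin plates lay above all 3 vehicle plates in each line, and in WB-F344 the gap was wider than the whole spread within either group. The group means were 374 ± 29.9 and 310.3 ± 25.7 in WB311 (rapamycin and vehicle) and 688 ± 32.0 and 292 ± 31.6 in WB-F344 (SD, n = 3 each). In WB-F344 cells Sgk1 rose 2.36-fold with rapamycin (log2 difference 1.24, SE 0.095, adjusted p = 1.6e-05, 95% confidence interval of the fold 2.04 to 2.73), and it ranked 59 of 13261 probe sets by p. The difference in WB311 was 0.27 on the log2 scale (95% interval 0.06 to 0.48, adjusted p = 0.155) and was not called. It was called there when the fold filter was applied before the adjustment (adjusted p = 0.0279) and when the line was fitted alone (0.0483). The effect was smaller in WB311 than in WB-F344 by 0.97 on the log2 scale, a difference of effects of -0.97 (95% interval -1.27 to -0.67, adjusted p = 0.00151). Its levels therefore ran, highest first, WB-F344 with rapamycin, WB311 with rapamycin, WB311 with vehicle and WB-F344 with vehicle. The last pair, the lines with vehicle, differed by 0.09 (WB311 minus WB-F344, 95% interval -0.12 to 0.30, adjusted p = 0.44). With rapamycin, Sgk1 was lower in WB311 than in WB-F344 by a log2 difference of -0.88 (95% interval -1.09 to -0.67, adjusted p = 1.03e-05).

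**Figure D2:**
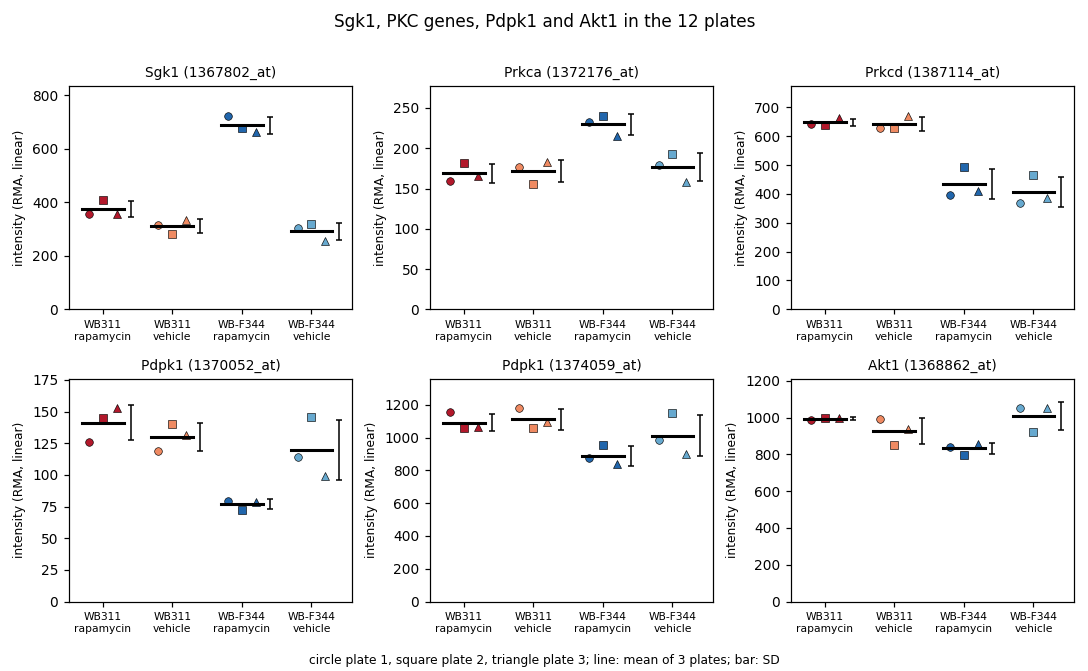
Intensity of Sgk1, Prkca, Prkcd, both Pdpk1 probe sets and the Akt1 probe set 1368862_at on each plate (points), with the mean and SD of 3 plates, in WB311 cells with rapamycin and vehicle and in WB-F344 cells with rapamycin and vehicle. Sgk1 lies between 662 and 724 in WB-F344 cells with rapamycin and at or below 409 elsewhere, and Prkcd is higher in both WB311 groups than in both WB-F344 groups.

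Pdpk1, whose product phosphorylates the activation loop of the other kinases described here, fell with rapamycin in WB-F344 by 1 of its 2 probe sets. The dimmer one (1370052_at) read 126, 145 and 153 on the WB311 plates with rapamycin, against 119, 140.3 and 132 with vehicle. The WB-F344 plates read 79.4, 72.4 and 78.7 with rapamycin, against 114, 145 and 99.3 with vehicle. Every WB-F344 plate with rapamycin lay below every other plate of the series. In WB-F344 cells it fell to 0.65 of the vehicle level (log2 difference -0.62, 95% interval -0.91 to -0.33, adjusted p = 0.00495), with means of 76.8 ± 3.89 with rapamycin and 119.6 ± 23.6 with vehicle. In WB311 the difference was 0.12 (95% interval -0.17 to 0.40) and was not called. The effects differed by 0.74 on the log2 scale (WB311 minus WB-F344, 95% interval 0.33 to 1.14, adjusted p = 0.0268). That call was lost when 1 of 5 of the 12 plates was left out: WB-F344 rapamycin plate 3 (adjusted p = 0.0533), WB311 vehicle plate 1 (0.0727) or 3 (0.0536), or WB311 rapamycin plate 2 (0.0668) or 3 (0.0733).

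The brighter Pdpk1 probe set (1374059_at) read 1155, 1059 and 1061.5 on the WB311 plates with rapamycin, against 1181, 1056 and 1095 with vehicle. In WB-F344 it read 878, 956 and 836 with rapamycin, against 988, 1147 and 898 with vehicle. The plates overlapped within each line. Its effect of rapamycin was -0.02 in WB311 (95% interval -0.23 to 0.18) and -0.18 in WB-F344 (95% interval -0.38 to 0.03, adjusted p = 0.183), neither of which was called. The 2 probe sets thus gave different calls for the same gene in WB-F344, and both effects there were below 0.

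Between the lines, Pdpk1 was higher in WB311 than in WB-F344 when both had rapamycin, by both probe sets. The dimmer probe set differed by 0.88 on the log2 scale, or 1.84-fold (95% interval 0.59 to 1.16, adjusted p = 0.00012), and the brighter by 0.30, or 1.23-fold (95% interval 0.09 to 0.50, adjusted p = 0.0158). The call on the brighter one was lost without WB311 rapamycin plate 1 (adjusted p = 0.0618) and without WB-F344 rapamycin plate 3 (0.0606), and with cyclic loess, where the difference was 0.21 and under 1.2-fold. With vehicle neither was called, at 0.14 each, and the dimmer one was called when WB-F344 vehicle plate 2 was left out (0.29, adjusted p = 0.0312).

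Akt1 and Akt2 encode AKT isoforms. In mice, loss of Akt1 slows growth and loss of Akt2 impairs the insulin response of liver, muscle and fat. The Akt1 probe set 1368862_at read 984, 997 and 999 on the WB311 plates with rapamycin, against 991, 851 and 939 with vehicle. WB-F344 cells gave 843, 799 and 858 with rapamycin, against 1053, 919 and 1050.3 with vehicle. The WB-F344 plates did not overlap and the WB311 plates did. Akt1 fell in WB-F344 cells by 0.27 on the log2 scale (95% interval -0.43 to -0.11, adjusted p = 0.0188). That call was lost without vehicle plate 1 (adjusted p = 0.0619), vehicle plate 3 (0.0681) or rapamycin plate 2 (0.052), with the 2 WB-F344 groups fitted alone (0.0928), and with the arrays rescaled by cyclic loess (-0.18, 0.129). The WB311 difference was 0.10 (95% interval -0.06 to 0.26). The effects differed by 0.37 (WB311 minus WB-F344, 95% interval 0.14 to 0.61, adjusted p = 0.0451). This call held in 2 of the 12 fits that left out 1 plate (WB311 vehicle plate 1 and WB-F344 vehicle plate 2), with adjusted p values of 0.0695 to 0.106 in the other 10. It was also lost with cyclic loess (0.145), with no intensity filter (0.0969) and with variances moderated over all probe sets (0.0529).

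The second Akt1 probe set (1383126_at), the brighter one, also fell in WB-F344 cells. It read 2467, 2398 and 2388 on the WB311 plates with rapamycin, against 2315, 2287 and 2512 with vehicle. On the WB-F344 plates it read 1950.1, 2500.5 and 1955 with rapamycin, against 2426, 3231 and 2705 with vehicle. The plates overlapped in both lines, and plate 2 was the highest of its group in both WB-F344 groups. The WB-F344 effect was -0.38 (95% interval -0.64 to -0.13, adjusted p = 0.031), and the WB311 effect 0.03 (95% interval -0.23 to 0.28). The WB-F344 call was lost without vehicle plate 2 (adjusted p = 0.074) or 3 (0.0624), or rapamycin plate 1 (0.105) or 3 (0.111), with cyclic loess (0.0596), with no intensity filter (0.0552), with the 2 WB-F344 groups fitted alone (0.153) and by the test of the study's methods (0.123). The effects differed by 0.41 (95% interval 0.05 to 0.78, adjusted p = 0.147), which was not called. It was called with the replicate number as a block (adjusted p = 0.0103) and without the WB-F344 plates numbered 2 (0.00973).

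Between the lines, no Akt1 probe set was called. With rapamycin, 1368862_at was higher in WB311 on every plate than on any WB-F344 plate, by 0.25 on the log2 scale (95% interval 0.09 to 0.42, adjusted p = 0.0107), a fold of 1.19 that fell short of 1.2. It was called with each array centred on its median (0.28, adjusted p = 0.00491) and in 1 fit that left out 1 plate (0.28, adjusted p = 0.0182). For 1383126_at the difference with rapamycin was 0.19 (95% interval -0.07 to 0.45), and it was called without WB-F344 rapamycin plate 2 (0.31, adjusted p = 0.0253). With vehicle the Akt1 differences were -0.12 (95% interval -0.28 to 0.04) and -0.22 (95% interval -0.48 to 0.03). The second of these, for 1383126_at, was called in 1 fit that left out 1 plate (-0.32, adjusted p = 0.0385).

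Akt2 was not called with rapamycin in either line by any of its 3 tested probe sets, and the probe sets did not move together across plates. The brightest (1388765_at) read 479, 457.5 and 474.5 on the WB311 plates with rapamycin, against 436, 402.5 and 450.2 with vehicle. The WB-F344 plates read 486, 550.0 and 467 with rapamycin, against 511, 614 and 479 with vehicle. The WB311 plates did not overlap and the WB-F344 plates did. Its effects were 0.13 in WB311 (95% interval -0.08 to 0.34, adjusted p = 0.541) and -0.09 in WB-F344 (95% interval -0.30 to 0.12). With vehicle it was lower in WB311 than in WB-F344 by 0.31 on the log2 scale, a difference of -0.31 (95% interval -0.52 to -0.10, adjusted p = 0.0157). That call was lost without WB311 vehicle plate 2 (adjusted p = 0.0622) and without WB-F344 vehicle plate 2, where the difference was -0.21 and under 1.2-fold.

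The other 2 Akt2 probe sets turned on plate 2 of WB-F344. Probe set 1387353_at read 227, 244 and 267.5 on the WB311 plates with rapamycin, against 253, 212 and 221 with vehicle. In WB-F344 it read 307, 118 and 316 with rapamycin, against 342, 107 and 303 with vehicle. Plate 2 was thus far below plates 1 and 3 in both WB-F344 groups, by -1.40 (rapamycin) and -1.59 (vehicle) on the log2 scale. Probe set 1368832_at read 207, 227 and 235 on the WB311 plates with rapamycin, against 224, 239 and 223 with vehicle, and on the WB-F344 plates 263, 168.5 and 248 with rapamycin, against 277, 162 and 253 with vehicle. It was low on the same plates, by -0.60 (rapamycin) and -0.71 (vehicle), while 1388765_at was higher there, by 0.21 (rapamycin) and 0.31 (vehicle). These are the plates whose Gapdh control read higher at its 3′ end. The part of that in the Akt2 values was not tested. With all plates the effect of rapamycin on 1387353_at in WB-F344 was 0.02 with an interval of -0.96 to 0.99, too wide to exclude a large change, and that on 1368832_at was -0.01 with an interval of -0.46 to 0.43. The difference between the lines of 1387353_at (WB311 minus WB-F344) changed direction without the plates numbered 2. It was -0.34 with rapamycin (0.12 with all plates) and -0.50 with vehicle (0.03 with all plates), and both were then called.

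**Figure D3:**
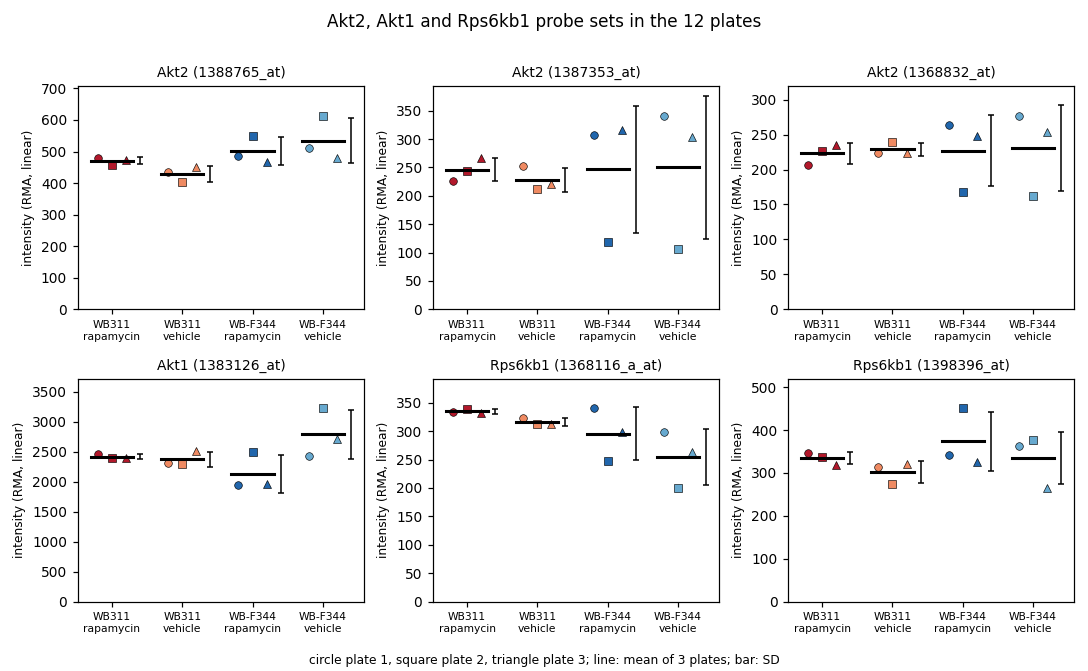
Intensity on each plate (points, with mean and SD of 3 plates) of the 3 tested Akt2 probe sets, the Akt1 probe set 1383126_at and both Rps6kb1 probe sets, in WB311 cells with rapamycin and vehicle and in WB-F344 cells with rapamycin and vehicle. The WB-F344 plates numbered 2 are the low points of Akt2 1387353_at, at 118 and 107, and of Rps6kb1 1368116_a_at, at 247 and 200.4.

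Rps6kb1 encodes S6K1, the mTOR complex 1 substrate that phosphorylates ribosomal protein S6 and the initiation factor eIF4B. Its mRNA was not called with rapamycin in either line. Probe set 1368116_a_at read 333, 339 and 332 on the WB311 plates with rapamycin, against 323.5, 312 and 312 with vehicle. WB-F344 cells gave 341, 247 and 298 with rapamycin, against 299, 200.4 and 264 with vehicle. The WB311 plates did not overlap, but their effect was only 0.08 on the log2 scale (95% interval -0.23 to 0.39). In WB-F344 the effect was 0.22 (95% interval -0.09 to 0.53, adjusted p = 0.275), and the rapamycin plate was higher than the vehicle plate of the same number for all 3 numbers. With vehicle it was higher in WB311 than in WB-F344 on every plate, by 0.33 (95% interval 0.02 to 0.64, adjusted p = 0.0606), which was not called. It was called in 1 fit that left out 1 plate (0.46, adjusted p = 0.0161), with the fold filter first and with the replicate block.

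The other Rps6kb1 probe set (1398396_at) read 347, 338 and 319 on the WB311 plates with rapamycin, against 313, 273 and 321 with vehicle. On the WB-F344 plates it read 343, 452 and 326 with rapamycin, against 362, 378 and 265 with vehicle. The plates overlapped in both lines, with effects of 0.15 in WB311 (95% interval -0.18 to 0.47) and 0.16 in WB-F344 (95% interval -0.17 to 0.49, adjusted p = 0.472). On the WB-F344 plates numbered 2 it was higher than on the others by 0.44 (rapamycin) and 0.29 (vehicle), and 1368116_a_at was lower there by -0.37 and -0.49, so the pair of probe sets of this gene moved in opposite directions on those plates.

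Prkca encodes the conventional PKC alpha, which is activated by calcium and diacylglycerol, and Prkcd encodes the calcium-independent PKC delta, which has been tied to apoptosis in several cell types. Prkca rose with rapamycin in WB-F344. Its promoter is shown as the other member that rose: the 250 bases before its RefSeq start, on the minus strand at chr10:93787328-93787577 (GRCr8), held 2 GC boxes (capitals, 1 on the opposite strand) and no other searched motif, at a GC content of 74.8%.
Prkca: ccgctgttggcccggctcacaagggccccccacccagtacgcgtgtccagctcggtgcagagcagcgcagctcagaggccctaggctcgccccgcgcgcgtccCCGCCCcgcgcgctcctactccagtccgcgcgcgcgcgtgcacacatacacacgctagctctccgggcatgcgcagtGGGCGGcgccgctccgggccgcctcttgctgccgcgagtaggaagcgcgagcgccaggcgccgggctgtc
The Prkca probe set (1372176_at) read 159, 182 and 165 on the WB311 plates with rapamycin, against 176.5, 156 and 182.5 with vehicle. The WB-F344 plates read 233, 241 and 215 with rapamycin, against 179.8, 193 and 158.5 with vehicle. The WB-F344 groups did not overlap and the WB311 groups did. In WB-F344 cells Prkca rose 1.30-fold (log2 difference 0.38, 95% interval 0.18 to 0.58, adjusted p = 0.0111), with means of 229.7 ± 12.9 with rapamycin and 177 ± 17.5 with vehicle. The call was lost when WB-F344 was fitted alone (adjusted p = 0.0576). In WB311 the effect was -0.02 (95% interval -0.23 to 0.18). The effects differed by -0.40 (WB311 minus WB-F344, 95% interval -0.69 to -0.11, adjusted p = 0.0771), which was not called, and was called with the replicate number as a block (0.0364) and without the WB-F344 plates numbered 2 (0.0363). With rapamycin Prkca was lower in WB311 than in WB-F344, with a log2 difference of -0.45 (95% interval -0.65 to -0.24, adjusted p = 0.00134). With vehicle the lines differed by -0.04 (95% interval -0.25 to 0.16).

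Prkcd differed between the lines and not detectably with rapamycin. The Prkcd probe set (1387114_at) read 643, 641 and 662 on the WB311 plates with rapamycin, against 629, 629 and 672 with vehicle. In WB-F344 it read 397, 492 and 412 with rapamycin, against 368, 466 and 387 with vehicle. All 6 WB311 plates lay above all 6 WB-F344 plates. Prkcd was 1.59-fold higher in WB311 than in WB-F344 with vehicle (log2 difference 0.67, 95% interval 0.45 to 0.89, adjusted p = 0.000142) and 1.50-fold higher with rapamycin (0.59, 95% interval 0.37 to 0.81, adjusted p = 0.000323). The effect of rapamycin was 0.01 in WB311 (95% interval -0.20 to 0.23) and 0.09 in WB-F344 (95% interval -0.13 to 0.31, adjusted p = 0.531), so changes beyond these intervals were not seen in either line.

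In all, 2 of the 12 probe sets differed between the lines with vehicle (Prkcd higher and Akt2 1388765_at lower in WB311), against 55.5% of all 13871 probe sets tested (27.6% higher and 27.9% lower), so a much smaller share than over the array. With rapamycin, 5 of the 12 differed (both Pdpk1 probe sets and Prkcd higher, Sgk1 and Prkca lower in WB311), against 58.8% of 13949 (33% higher and 25.8% lower). The plates of the lines did not overlap for 3 of 12 with vehicle (66.4% of all tested) and for 6 of 12 with rapamycin (72.3%). The line comparisons and the rapamycin comparisons share plates, so their values are set side by side here and not correlated.

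**Figure D4:**
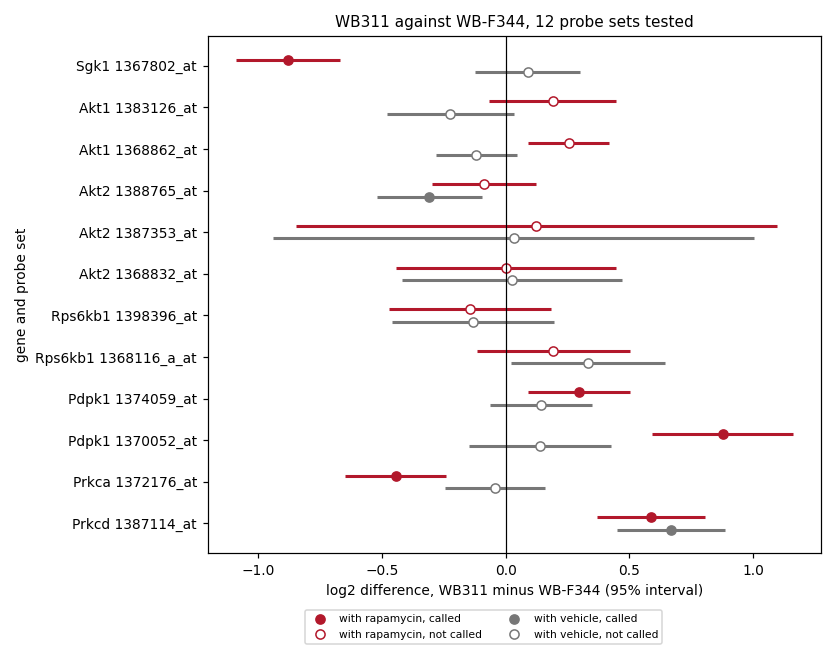
Difference between the lines (WB311 minus WB-F344, log2, with 95% confidence interval) for each tested probe set, with rapamycin and with vehicle; filled points were called. Prkcd is at 0.59 and 0.67, while Sgk1 is at -0.88 with rapamycin and at 0.09 with vehicle.

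The other genes of these pathways were taken from 6 lists that do not hold the 9 kinases, each gene standing for its brightest probe set. Beside every count with rapamycin stands the share over all probe sets tested, 3.72% called in WB311 and 22.6% in WB-F344. In the list of PI3K, PIP3 phosphatase and AKT regulator genes (21 of 24 with a probe set, 14 tested), 1 rose and 1 fell in each line with rapamycin, and the list's median effect was 0.09 in WB311 and 0.06 in WB-F344. Trib3, a pseudokinase that binds AKT and is induced by amino acid and endoplasmic reticulum stress, was the one that fell in both. It averaged 494 ± 43.3 with rapamycin and 979 ± 138 with vehicle in WB311 cells (log2 difference -0.98, adjusted p = 0.00481), and 113 ± 20.8 with rapamycin and 213 ± 17.5 with vehicle in WB-F344 cells (-0.93, adjusted p = 0.000919). Irs2, an insulin receptor substrate, rose in WB311 (0.62, adjusted p = 0.0311), a call that was lost with any 1 of the 6 WB311 plates left out. Inpp5k, a phosphoinositide 5-phosphatase, rose in WB-F344 (0.42, adjusted p = 0.0147), and was no longer called without WB-F344 rapamycin plate 1 (0.0547).

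Of 11 tested mTOR complex genes, 1 rose in WB311 and 2 fell in WB-F344 with rapamycin (3.72% and 22.6% of all probe sets called), with list medians of 0.04 and -0.05. Deptor, an inhibitory partner of mTOR, moved in opposite directions: it averaged 489 ± 18.3 with rapamycin and 312 ± 26.4 with vehicle in WB311 cells (0.65, adjusted p = 0.0321, lost with any 1 of the 6 plates left out), and 475 ± 109 with rapamycin and 791 ± 104 with vehicle in WB-F344 cells (-0.75, adjusted p = 0.00325). The effects differed by 1.40 (adjusted p = 0.00189). Prr5, a component of mTOR complex 2, fell in WB-F344 cells (-0.59, adjusted p = 0.000387).

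Genes for AKT and SGK substrates (16 of 17 tested) had 1 lower in WB311 and 2 higher in WB-F344 with rapamycin, against 3.72% and 22.6% of all probe sets called, and list medians of 0.02 and -0.05. Foxo1, a transcription factor of fasting genes in liver, rose in WB-F344 (0.46, adjusted p = 0.00553), with means of 133.8 ± 8.1 with rapamycin and 98.0 ± 14.5 with vehicle. Mdm2, the ubiquitin ligase of p53, rose in WB-F344 (0.64, adjusted p = 0.00667), with 3609 ± 552 against 2329 ± 451. Ndrg2 fell in WB311 (-0.63, adjusted p = 0.0207), a call lost with 1 plate left out in 4 of 6 fits. The difference of effects between the lines was called for 0 of the 16 by limma, and 1 had an unadjusted p under 0.05. Over all 14214 probe sets tested, 10.7% were called for this difference. Without the WB-F344 plates numbered 2, 2 of the 16 were called. Between the lines with vehicle, 2 were higher and 8 lower in WB311, against 55.5% of all probe sets tested, with a list median of -0.30 against 0.02 over all. The cell cycle inhibitor gene Cdkn1a was among those lower, at 1016 ± 12.9 in WB311 and 2506 ± 366 in WB-F344 cells (-1.29, adjusted p = 4.19e-06).

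Of 11 tested genes for S6K and RSK substrates, 1 rose in WB311 and 3 rose in WB-F344 with rapamycin, and 0 were called lower in either line, at list medians of 0.06 and 0.07. Over all probe sets 1.87% were called higher and 1.85% lower in WB311, and 7.58% higher and 15% lower in WB-F344, so with 11 genes the absence of lower calls is near the background. Eif4b, the translation initiation factor that S6K phosphorylates, rose in both. It averaged 2583 ± 94.0 with rapamycin and 1703 ± 28.1 with vehicle in WB311 cells (0.60, adjusted p = 0.00121), and 1545 ± 22.2 with rapamycin and 1085 ± 86.0 with vehicle in WB-F344 cells (0.51, adjusted p = 0.000246). Pdcd4, an inhibitor of the helicase eIF4A that S6K marks for degradation, rose in WB-F344 cells (0.61, adjusted p = 0.00234), and the effects differed by -0.63 (WB311 minus WB-F344, adjusted p = 0.0275, lost in 4 of 12 fits with 1 plate left out). Nr4a1, an immediate early transcription factor, rose in WB-F344 (0.81, adjusted p = 0.00151) from a vehicle mean below 100, at 138 ± 30.9 with rapamycin and 77.5 ± 6.4 with vehicle. Rps6 itself, coding for the S6 protein, was higher in WB311 than in WB-F344 with vehicle (0.46, adjusted p = 1.58e-05).

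Among genes for phospholipases C, diacylglycerol kinases and PKC partners, 0 of 19 were called in WB311 with rapamycin by limma, where 3 had an unadjusted p under 0.05. Over all probe sets tested in WB311 these shares were 3.72% and 18.1%, so 0 of 19 is near the background. In WB-F344, 5 of 20 were higher and 4 lower, against 7.58% higher and 15% lower over all probe sets tested. The list medians were 0.08 in WB311 and 0.06 in WB-F344. Marcks, a membrane protein and classic PKC substrate, fell in WB-F344 cells to 1470 ± 23.3 with rapamycin, against 2369 ± 36.7 with vehicle (-0.69, adjusted p = 0.000195). In WB311 it averaged 17.7 ± 1.6 with rapamycin and 18.6 ± 1.9 with vehicle, below 100 in both groups, so the size of its line difference (-7.00 with vehicle) is rough. Akap12, a scaffold that binds PKC, had the same pattern between the lines, at 25.2 ± 0.5 in WB311 and 3748 ± 26.5 in WB-F344 cells with vehicle. Cavin3, a caveolar protein that binds PKC delta, fell in WB-F344 to 2668 ± 54.3 with rapamycin, against 4590 ± 299 with vehicle (-0.78, adjusted p = 1.72e-05). Cavin2, the caveolar binding partner of PKC alpha, ran the other way between the lines, at 853 ± 99.7 in WB311 and 92.8 ± 16.1 in WB-F344 cells with vehicle. The proteoglycan gene Sdc4 rose in WB-F344 (0.42, adjusted p = 0.000328).

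Of the other AGC kinases (18 tested in each line), 1 rose in WB311, and 3 rose and 2 fell in WB-F344 with rapamycin, at list medians of 0.09 and 0.10. Over all probe sets 3.72% were called in WB311 and 22.6% in WB-F344. Prkacb, a catalytic subunit of protein kinase A, rose in WB-F344 cells to 2772 ± 120.3 with rapamycin, against 1538 ± 161 with vehicle (0.85, adjusted p = 7.6e-05), and the effects of the lines differed by -0.69 (WB311 minus WB-F344, adjusted p = 0.00558). Stk38l, a kinase of the NDR family, rose to 399 ± 17.4 with rapamycin, against 247 ± 14.0 with vehicle (0.69, adjusted p = 6.54e-05), and the effects differed by -0.76 (adjusted p = 0.000963). Lats2, a Hippo pathway kinase, rose in WB311 (0.31, adjusted p = 0.018, lost in 5 of 6 fits with 1 plate left out) and in WB-F344 (0.44, adjusted p = 0.000418). The atypical PKC gene Prkcz fell in WB-F344 cells, at 219 ± 12.4 with rapamycin and 323 ± 20.6 with vehicle (-0.56, adjusted p = 0.000713). Rps6ka3, coding for the ribosomal S6 kinase RSK2, was higher in WB311 cells, at 689 ± 48.2, against 168.5 ± 19.0 in WB-F344 cells with vehicle (2.04, adjusted p = 1.2e-07). With vehicle, 6 of 18 were higher and 4 lower in WB311, a share near the 55.5% called over all probe sets.

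**Figure D5:**
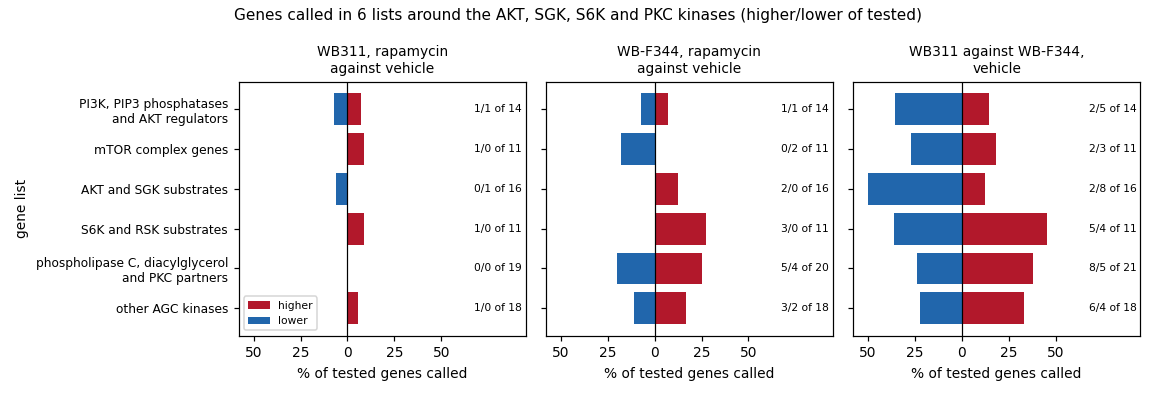
Percent of the tested genes of each list that were called higher or lower with rapamycin in WB311, with rapamycin in WB-F344, and in WB311 against WB-F344 with vehicle (one bar per list, each gene by its brightest probe set). The phospholipase C, diacylglycerol and PKC partner list has 0 of 19 called in WB311 with rapamycin, and 5 of 20 higher and 4 of 20 lower in WB-F344. Over all probe sets tested, 3.72% were called with rapamycin in WB311 and 22.6% in WB-F344.

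Over the 12 arrays, the gene whose log2 values followed Sgk1 most closely among 8666 genes was Ankrd50, a protein of endosomal sorting (Pearson r 0.976), followed by Mgp, the matrix Gla protein that limits calcification (0.966). Prkcd was followed by Adam15, a membrane metalloprotease (0.994), and B4galt6, a galactosyltransferase (0.993). Akt1 was followed by Eif4enif1, the transporter of eIF4E (0.978), and Dlst, an enzyme subunit of the citric acid cycle (0.976). Pdpk1 was followed by Eri2 (0.957) and Septin9 (0.948), Prkca by Lclat1 (0.955) and Pde7a (0.945), Akt2 by Kansl3 (0.960) and Usp30 (0.956), and Rps6kb1 by Sepsecs (0.929) and Usp32 (0.918). The arrays fall into 4 groups and share their line and, in WB-F344, their plate number, so these correlations describe the same 12 arrays and carry no test.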

How the data were processed

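RNA from 3 plates of each of 4 groups was hybridised to 1 array per plate. The deposited values were intensities on a linear scale, made by the authors with robust multiarray average normalization; they span 7.78 to 20499. The version of that normalization, and a genome build, were not given in the sources used here. The files hold no counts or detection calls, so precision rests on the number of arrays. Their log2 was taken here, and 1 limma fit (version 3.58.1, R 4.3.3) with a mean per group was made over all 12 arrays, with variances moderated over the probe sets that averaged at least 100 in a compared group, following the filter of the study's methods. Calls needed a Benjamini-Hochberg adjusted p under 0.05 over all probe sets tested and a fold of 1.2. Of 31042 probe sets, 20826 carried 1 gene symbol and 436 several, and no gene was named from a probe set with several. The fit recovered known changes in simulated data, with independent noise of the same spread in all groups. WB-F344 plates that deviate together and a spread that differs between the lines were not simulated. Tables and plots used Python 3.11.15, pandas 2.3.3 and matplotlib 3.10.9. Promoters are from RefSeq (GRCr8), where all 9 genes matched.

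The 9 kinases and the lists were chosen with earlier results of these data known. All 9 kinases were named, with up to 3 called genes with the smallest p per list and comparison, and the 2 genes most like each kinase. Genes named beyond this describe the markers. A gene stands for its brightest probe set. Whether plates with the same number deviate together was checked: correlations were 0.561 to 0.871 in WB-F344 cells, -0.139 to -0.000258 in WB311 cells and -0.265 to 0.198 between lines. Crossing plates 1 and 3 of WB-F344 gave 0.581 to 0.605, so the check sets plate 2 apart and does not tell numbers 1 and 3 apart. The replicate block is given on this basis for WB-F344, since the labels do not say what a number marks. It was also applied in WB311 and over both lines, where the check gave no such basis. Alternatives were cyclic loess, median centring, no filter, the fold filter first, 2 groups at a time, the methods' t-test, the replicate block, leaving out plates and, added after seeing the data, moderation over all probe sets.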

Additional observations from a re-analysis of the deposited data

Results flagged for a closer look

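The effect of rapamycin differed between the lines, by the contrast of the 2 effects in the limma fit, for 14 genes among the kinases and the lists above. Up to 3 genes per list are named, so 14 is not a full count and cannot be set against the share below. The list of phospholipase C, diacylglycerol and PKC partners had 3 called higher and 2 called lower of 21. Over all 14214 probe sets tested, 10.7% differed in this way. The markers Krt7, Cd14, Col3a1 and Col1a2 differed as well. Each value is the log2 effect in WB311 minus that in WB-F344. Of the kinases described above, Sgk1 was at -0.97, Pdpk1 (1370052_at) at 0.74 and Akt1 (1368862_at) at 0.37. These kinases count by any probe set. The brightest probe sets of Pdpk1 (1374059_at, 0.15) and Akt1 (1383126_at, 0.41) were not called for this difference. The Akt1 difference was lost in 10 of 12 fits that left out 1 plate and the Pdpk1 difference in 5 of 12.

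Among regulators, Ppp2cb, a catalytic subunit of protein phosphatase 2A, was at 0.30 (lost in 9 of 12 such fits), Deptor at 1.40 and Prr5 at 0.58. Among substrates of S6K and RSK, Pdcd4 was at -0.63 and Nr4a1 at -0.77, the second with group means below 100 in 3 of the 4 groups and lost in 7 of 12 fits. Of the PKC partners, Marcks was at 0.62, with WB311 means near 18, Cavin2 at 1.34, with WB-F344 means below 100, and Cavin3 at 0.95. The other AGC kinases were Prkcz at 0.48 (lost in 6 of 12), Prkacb at -0.69 and Stk38l at -0.76. The markers Krt7 and Cd14 were at 1.07 and -0.77, and the collagen markers Col3a1 and Col1a2 at 1.08 and 0.45. With 3 plates per group, single plates were not checked as outliers.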

How the results depend on the processing

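The number of the 12 probe sets called with rapamycin in WB-F344 was 5, against 3 with cyclic loess, 2 with the 2 WB-F344 groups alone and 3 to 4 with 1 plate left out. In WB311 it was 0, and 1 (Sgk1) with the fold filter first or the 2 WB311 groups alone. Between the lines with vehicle it was 2, against 1 by the methods' t-test and 1 to 4 with 1 plate left out. For the difference of effects it was 3, against 5 without the plates numbered 2, 5 with the replicate block and 1 to 4 with 1 plate left out. The direction of Akt2 1387353_at turned without the plates numbered 2, to -0.34 with rapamycin and -0.50 with vehicle (WB311 minus WB-F344). The cause of these changes was not tested. The calls on Sgk1 in WB-F344, Pdpk1 1370052_at in WB-F344, Sgk1, Prkca and Pdpk1 1370052_at between the lines with rapamycin, Prkcd between the lines with either agent and the Sgk1 difference of effects held under every alternative run.

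With the replicate block the calls over all probe sets were 4044 in WB-F344 (3000 without), 1205 in WB311 (488) and 3229 for the difference of effects (1517). Rapamycin calls over all probe sets in WB-F344 were 1658 with the 2 groups alone. In WB311 they were 289 with no filter, 1066 with the fold filter first, 1301 without the plates numbered 2, 1319 with the 2 groups alone, 1234 by the methods' t-test and 181 to 241 with 1 plate left out. For the difference of effects they were 2544 with the fold filter first, 2975 without the plates numbered 2 and 989 to 1873 with 1 plate left out. Cyclic loess moved the split of WB-F344 calls to 1416 higher and 1516 lower (1005 and 1995 otherwise), and that of the difference of effects to 877 and 718 (1044 and 473 otherwise). Without the plates numbered 2, the calls in the lists of related genes moved most for PI3K and AKT regulators (4 higher and 2 lower with rapamycin in WB-F344, 4 and 1 in WB311) and other AGC kinases (5 and 4 in WB-F344), and 2 AKT and SGK substrates were called for the difference of effects. Of 948 recomputed values of the kinases, 39 lost a call, 20 gained one and 2 turned direction and were called. With 3 plates per group, differences inside the printed intervals could not be resolved.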
